A study of Schizosaccharomyces pombe with 3 samples.

Results

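The genes described here are the vacuolar protein sorting and adaptor complex genes of fission yeast, Schizosaccharomyces pombe. They were chosen by a name rule, as genes whose lower-case platform symbol is vps, apl, apm or aps followed by a number. The choice was made with earlier results of these data known. There were 43 of them among the 2896 fission yeast genes measured, and each had 1 probe set. Wild type cells were cultured at 30 degrees in YEA, a liquid rich medium, and total RNA of each of 3 samples was hybridised to 1 Affymetrix array. The strain label of all 3 gave the mating type h+ (plus) with leu1-32, ade6-210 and ura4-DS/E, which are alleles of genes for leucine, adenine and uracil synthesis. There was 1 group and hence no contrast between conditions. Whether separate cultures were used is not labelled, and the p-values rest on the spread between these samples alone, which could be technical.

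Newly made vacuolar enzymes and endocytosed membrane proteins reach the yeast vacuole through endosomes. Adaptor complexes select cargo at the Golgi, the endosome or the plasma membrane. ESCRT complexes fold ubiquitinated cargo into vesicles inside the endosome, and retromer returns sorting receptors to the Golgi. Tethering complexes then join endosomes, vacuoles and Golgi membranes. Most of these roles were worked out in budding yeast, in whose vps mutants vacuolar enzymes are secreted, and the roles given below are those of the family where fission yeast has not been studied as closely.

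All 43 genes gave signal far above background. The background limit was the 95th percentile of signal over probe sets that the array carries for another yeast, and it lay at a MAS5 signal of 1.20, 1.24 and 1.18 on arrays 1, 2 and 3. MAS5 signal is the authors' summary of the brightness of the probes of a probe set, on a linear scale. The lowest signal of any member was 46.1 on array 1, 44.7 on array 2 and 37.7 on array 3. By limma, all 43 members were above the limit at a Benjamini-Hochberg adjusted p under 0.05, where 99.9% of all genes tested were, so the count says nothing particular about these genes. The member nearest to the limit was vps25, at 5.24 above it on the log2 scale (limma adjusted p = 7.21e-11). In RNA of whole cultures, fewer cells that express a gene and less RNA per cell cannot be told apart.

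The members spanned the middle of the range of signal. Their median log2 signal was 8.11, against 8.22 over all genes, and 27 of the 43 lay between the bottom and the top 25% of all genes. In the top 25% of mean signal were 7 members (16.3%, against 25% of all genes), and in the bottom 25% were 9 (20.9%, against 25%). The brightness of a probe set depends on its probe sequences as well as on its transcript, so differences in signal between genes are descriptions of the arrays and carry no test. With aps1 and vps71 left out, whose proteins act elsewhere, the median was 8.34 and lay on the other side of that of all genes.

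**Figure D1:**
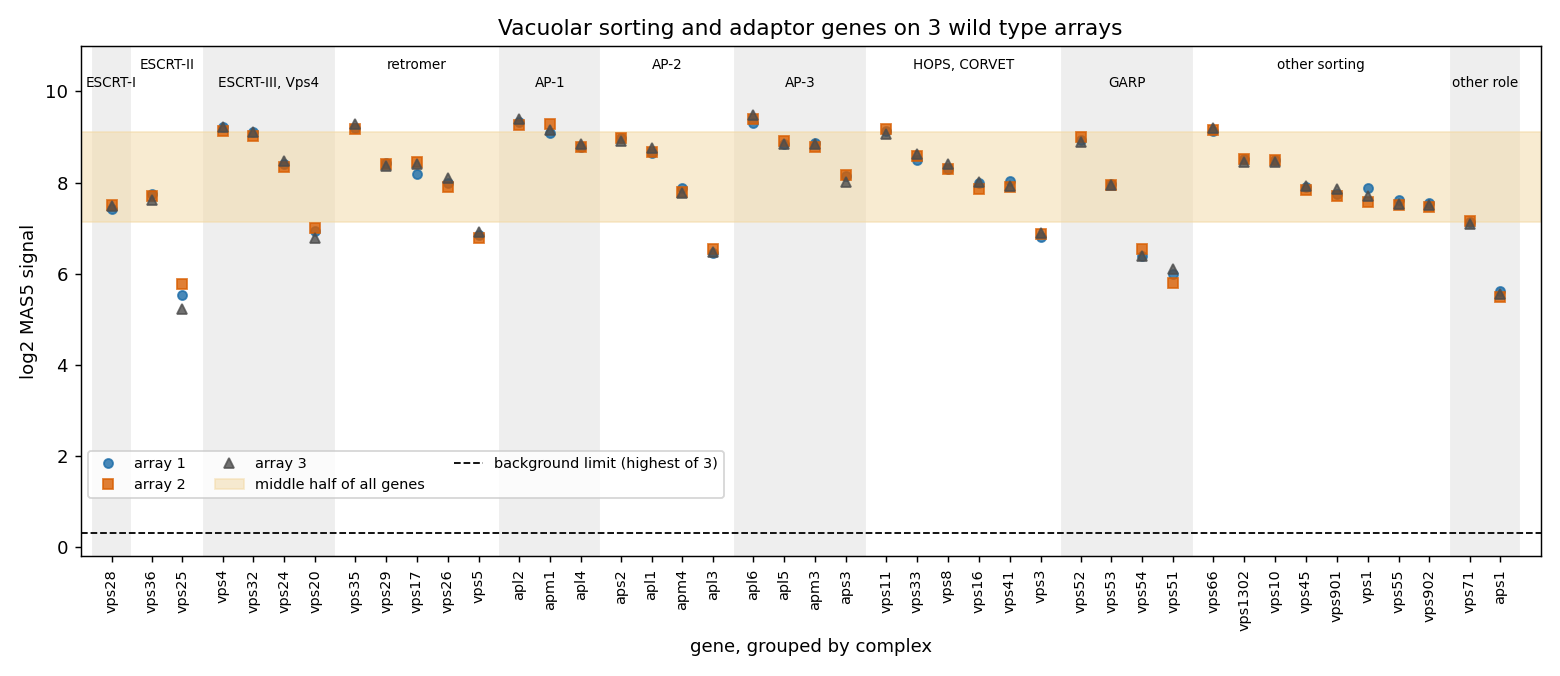
The plot gives the log2 MAS5 signal (vertical axis) of each of the 43 genes on arrays 1, 2 and 3 (1 point per array), with genes grouped by complex. The shaded band runs from the 25th to the 75th percentile of all 2896 genes and the dashed line the highest of the 3 background limits, and all points lie far above that line, with vps25 and aps1 lowest.

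The same families on the other yeast's part of the array stayed dark. The platform carries 42 probe sets with fully capitalised VPS, APL, APM or APS symbols in the budding yeast style, whose organism no table stated. They are among the probe sets that set the limit, so few could pass it by construction. Their signals ran from 0.0219 to 1.55 with a median of 0.159, against 0.184 over all probe sets of the other yeast. None of the 42 was above the limit on all 3 arrays, where 0.769% of all probe sets of the other yeast were. On any array, 2 were above (4.76%, against 11% of all probe sets of the other yeast), namely VPS28, with signals of 0.409, 0.845 and 1.55, and VPS36, with signals of 1.29, 0.460 and 0.112. VPS28 passed on array 3 alone and VPS36 on array 1 alone.

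Of these probe sets, 35 shared the name of a member. All 35 members of these pairs were above the limit on every array, as were 99.9% of all fission yeast genes. Member signals ran from 37.7 to 718, while their capitalised namesakes gave at most 1.55. For the dynamin-like gene vps1 the signals were 234, 192 and 209, and those of VPS1 were 0.752, 1.04 and 0.184. For vps4, the ATPase that disassembles ESCRT-III, the signals were 599.8, 558 and 599.9, and those of VPS4 were 0.113, 0.0608 and 0.0608. In no pair did the values of the member and its namesake overlap. No probe set of the other yeast gave a signal above 3.65, so the separation says nothing particular about these pairs.

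**Figure D2:**
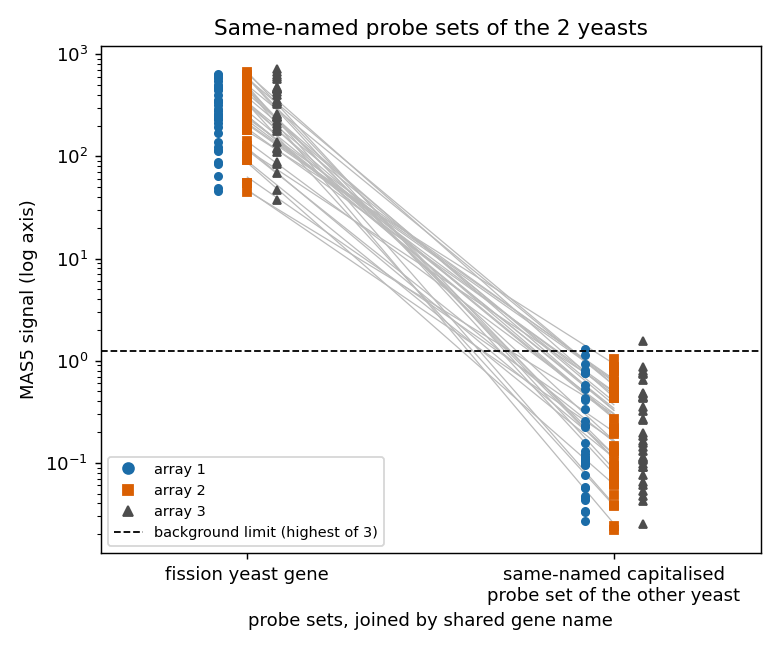
The plot sets the MAS5 signal (vertical, log axis) of 35 fission yeast genes, left, beside that of the capitalised probe sets of the same names, right. Points are single arrays, grey lines join the means of a pair, and the dashed line is the highest background limit. The fission yeast genes sit between 37.7 and 718 and their namesakes at or below 1.55.

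ESCRT genes gave a wide range of signal, from vps4, the ATPase, and vps32, the main filament subunit, at the top to the ESCRT-II gene vps25 at the bottom. The rule reached 7 of them, with a median log2 signal of 7.69, of which 1 was in the top 25% and 2 in the bottom 25%. The highest, vps4, averaged 9.19 ± 0.06 on the log2 scale (SD, n = 3, as for all values with ± below). The lowest, vps25, a core subunit of ESCRT-II, had signals of 46.1, 54.8 and 37.7, or 5.51 ± 0.27. This was the largest spread of any member, with array 2 highest and array 3 lowest, a range of 1.46-fold.

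The other ESCRT members lay between these. In ESCRT-III, whose subunits polymerise on the endosomal membrane, vps32, the main filament subunit, had signals of 549, 522 and 550 (9.08 ± 0.04). Its partner vps24, which joins the polymer, averaged 8.40 ± 0.06. The subunit vps20, which starts the filament, had signals of 123, 128 and 111 (6.91 ± 0.11), with array 3 lowest. The second ESCRT-II subunit reached by the rule, vps36, which binds lipid and ubiquitin in budding yeast, had signals of 214, 208 and 196 (7.69 ± 0.07). Among the members reached by the name rule, ESCRT-I was represented by vps28 alone, at 171, 181 and 178 (7.47 ± 0.05). For vps32 and vps28 array 2 and array 1 were lowest, so the ESCRT genes did not follow 1 array.

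Further ESCRT genes carry other names, and all 10 measured were above the limit, as were 99.9% of all genes. Their median was 7.94, with 0 in the top 25% and 1 in the bottom 25%. Highest were did2 at 9.04 ± 0.11, an ESCRT-III protein, and lem2 at 8.999 ± 0.03, an inner nuclear membrane protein linked to ESCRT-III at the nuclear envelope. Lowest were ist1 at 6.83 ± 0.05, a regulator of Vps4, and sst2 at 7.64 ± 0.06, a deubiquitinating enzyme. Among the 10, the gene table lists family names as synonyms for sst4, dot2 and did4. The mean was 8.09 ± 0.04 for sst4 (vps27, ESCRT-0). It was 8.37 ± 0.03 for dot2 (vps22, ESCRT-II) and 7.79 ± 0.07 for did4 (vps2, ESCRT-III). Of the ESCRT-II genes, dot2 and vps36 thus lay between the bottom and the top 25%, while vps25 was in the bottom 25%.

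Retromer genes were spread over the range of all genes, and their median log2 signal was 8.35. The top 25% held 1 of the 5 members and the bottom 25% another. The highest was vps35, the scaffold of the cargo-binding trimer, with signals of 588, 577 and 627 (9.22 ± 0.06). The other trimer subunits were vps29 at 8.40 ± 0.04 and vps26 at 7.9996 ± 0.09. The sorting nexins that bend the membrane are vps5 and vps17. For vps5 the signals were 116, 110 and 121 (6.85 ± 0.07), the lowest of the complex. For vps17 they were 293, 348 and 342 (8.35 ± 0.14), with array 1 below the other arrays by more than those differed from each other. The range of vps17, 1.19-fold, was wide for its signal, and its SD lay at the 92.6th percentile of genes of like signal, that is, of the same bin when genes were cut into 10 equal bins of mean signal.

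Adaptor genes had the highest median of the 3 systems, 8.83. In the top 25% were 3 of the 11 members (27.3%, near the 25% of all genes), and the bottom 25% held 1 (9.09%). An adaptor complex holds 2 large subunits, a medium subunit (mu) that reads cargo signals and a small subunit (sigma). AP-1 works between Golgi and endosome. Its large subunit genes were apl2, with signals of 644, 620 and 670 (9.33 ± 0.06), and apl4, with signals of 443, 441 and 462 (8.81 ± 0.04). Its mu subunit gene, apm1, averaged 9.18 ± 0.11, with an SD at the 93.3rd percentile of genes of like signal. Its sigma subunit gene is vas2 in fission yeast, which the rule did not reach and which averaged 8.40 ± 0.03. All AP-1 genes thus gave signal above the median of all genes.

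AP-2, the adaptor of endocytosis at the plasma membrane, had an uneven set of signals. The sigma subunit gene aps2 was highest, with signals of 502, 505 and 484 (8.96 ± 0.03), and the large subunit gene apl1 gave 8.69 ± 0.06. The mu subunit gene apm4 gave 7.82 ± 0.05. The other large subunit gene, apl3, had signals of 88.2, 93.3 and 88.8 (6.49 ± 0.04), which made it the 1 adaptor gene in the bottom 25%. Its arrays differed by only 1.06-fold.

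AP-3 carries cargo from the Golgi to the vacuole past the endosome. Its large subunit gene apl6 had signals of 630, 674 and 718 (9.40 ± 0.09), the highest mean of all 43 members, with an SD at the 92.6th percentile of genes of like signal. The other large subunit gene, apl5, gave 8.86 ± 0.04, and the mu subunit gene apm3 gave 8.83 ± 0.04. The sigma subunit gene aps3 had signals of 281, 289 and 259 (8.11 ± 0.08), the lowest of the complex. All members of AP-1 and AP-3 but aps3 were above the median of all genes.

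A shared name hid a gene of another kind. The fission yeast symbol aps1 belongs to a diadenosine polyphosphate hydrolase, while the gene table gives aps1 as a synonym of the AP-1 subunit gene vas2. The hydrolase gene aps1 had signals of 49.4, 44.7 and 47.3 (5.56 ± 0.07) and lay in the bottom 25%. Likewise vps71, for which the table gives the synonym swc6, encodes a subunit of the SWR1 complex, which places histone H2A.Z in chromatin. It had signals of 139.9, 143 and 137 (7.13 ± 0.03), just inside the bottom 25%, whose upper edge was 7.13. Neither was counted with the sorting complexes.

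The vacuole and endosome tethers, HOPS and CORVET, gave a median of 8.15 over 6 members. Their shared core includes vps11, with signals of 565, 578 and 539 (9.13 ± 0.05), the Sec1-family protein gene vps33 at 8.57 ± 0.07, and vps16 at 7.95 ± 0.08. The subunit of HOPS reached by the rule, vps41, gave 7.95 ± 0.07. The CORVET subunits were vps8 at 8.34 ± 0.06 and vps3, with signals of 113, 117 and 119 (6.86 ± 0.04). Thus vps11 was the 1 member of the tethers in the top 25% and vps3 the 1 in the bottom 25%. Listed under other names were pep3 (vps18) at 8.77 ± 0.05 and vam6 (vps39) at 7.44 ± 0.05.

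GARP, which tethers endosome-derived vesicles to the Golgi, had the lowest median of the complexes with 3 or more members, 7.20. Its genes split into a brighter and a dimmer pair. The brighter were vps52, with signals of 489, 510 and 472 (8.94 ± 0.06), and vps53, with signals of 250.4, 249 and 246 (7.96 ± 0.01). Of all 43 members vps53 had the smallest spread. The dimmer were vps54 at 6.44 ± 0.08 and vps51, with signals of 64.2, 55.6 and 68.5 (5.97 ± 0.15), and both lay in the bottom 25%. The arrays of vps51 ranged over 1.23-fold, with array 2 lowest.

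The other sorting genes had a median of 7.83, and the top 25% held 1 of the 8 and the bottom 25% held 0. The highest was vps66, with signals of 566, 574 and 583 (9.17 ± 0.02). The gene vps1302, of the Vps13 family of lipid transfer proteins, gave 8.49 ± 0.03, and vps10, the sorting receptor of the vacuolar carboxypeptidase, gave 8.48 ± 0.03. The Sec1-family gene vps45 gave 7.89 ± 0.04 and vps55 gave 7.55 ± 0.05. Activators of endosomal Rab GTPases are encoded by vps901 at 7.77 ± 0.08 and by vps902, now named muk1, with signals of 187, 177 and 181 (7.51 ± 0.04), the lowest here. The dynamin-like gene vps1 averaged 7.72 ± 0.14, with array 1 highest and array 2 lowest, a range of 1.22-fold, and its SD lay at the 91.9th percentile of genes of like signal.

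The lipid kinase that marks endosomes was outside the name rule but measured. Its catalytic subunit gene pik3 (vps34) gave 7.43 ± 0.05 and the subunit gene vps15, ppk19 on the platform, gave 7.66 ± 0.08. The gene that the gene table calls vps38 and the platform atg14 gave 7.08 ± 0.14. The second Vps13-family gene, vps1301, gave 6.48 ± 0.15. In all, 10 genes had a family name in the gene table and another symbol on the platform. All 10 were above the limit, as were 99.9% of all genes. The genes gpp74, vps60 and vps68 were not analysed here.

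Signals of the members were repeatable between arrays to the degree usual for these arrays. The median SD over the 43 members was 0.059 on the log2 scale, against 0.061 over all genes. The SD was below the median of genes of like signal for 22 members (51.2%, against 49.9% of all genes). The signals of the 3 arrays lay within 1.1-fold of each other for 30 members (69.8%, against 60.1% of all genes) and within 1.3-fold for 42 (97.7%, against 93.8%). The exception was vps25. Above the 90th percentile of SD for their signal were 4 members (9.3%, against 10%), namely apm1, apl6, vps17 and vps1.

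**Figure D3:**
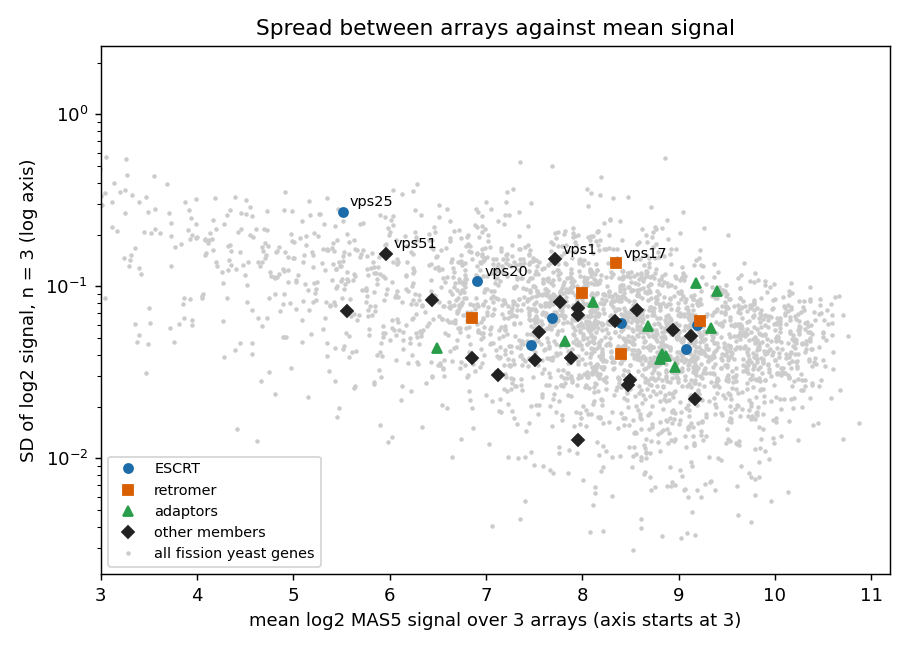
The plot gives the SD of log2 signal over 3 arrays (vertical, log axis) against mean log2 signal (horizontal, from 3) for each gene, with members coloured by system and all genes in grey. The 5 members with the largest SD are named, and vps25, at 5.51 with an SD of 0.27, stands highest among the members.

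No array stood apart for the members as a set. The median deviation of a member from its own mean over arrays was 0.0086 on array 1, -0.0011 on array 2 and 0.0065 on array 3, against -0.0015, -0.0046 and 0.0066 over all genes. Array 2 held the lowest signal of 19 members (44.2%, against 36.3% of all genes) and array 3 the highest of 18 (41.9%, against 39.4%). Members with their largest spreads did not share a pattern. Array 2 was highest for vps25, vps17 and vps20 and lowest for vps1 and vps51.

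Other genes of the pathway were taken from lists of genes with other names. All 46 measured over 5 lists were above the limit, as were 99.9% of all genes. Clathrin and accessory genes had a median of 8.87 over 8 genes, with 4 in the top 25% and 0 in the bottom 25%. Highest were sla1 at 9.71 ± 0.04 and the clathrin heavy chain gene chc1 at 9.69 ± 0.05, and lowest were syp1 at 7.75 ± 0.06 and ucp8 at 8.02 ± 0.11. The fission yeast sla1 has the synonym lhp1 and encodes the RNA-binding La protein, not an endocytic one. So 1 of the 4 rests on a shared name. The median of 8.87 counts sla1 too and would be lower without it. The clathrin light chain gene clc1 gave 8.63 ± 0.05.

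Genes listed for endosome and vacuole fusion had a median of 7.68 over 12, with 2 in the top 25% and 3 in the bottom 25%. Highest were the SNARE gene vti1 at 9.42 ± 0.06 and ypt5, the Rab5 GTPase gene, at 9.27 ± 0.04. Lowest were the SNARE genes fsv1 at 5.43 ± 0.08 and psy1 at 6.41 ± 0.06. The gene table gives psy1 the synonym sso1, the name of a plasma membrane SNARE gene. It is counted among the 12 and among the 3 in the bottom 25%. The vacuolar Rab GTPase gene ypt7 gave 8.80 ± 0.08.

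Genes listed as cargo, receptors or hydrolases had a median of 8.25 over 7, with 2 in the top 25% and 2 in the bottom 25%. Highest were cpy1, the vacuolar carboxypeptidase carried by Vps10, at 10.11 ± 0.04, and the aminopeptidase gene ape2 at 9.30 ± 0.04. Lowest were aut12 at 6.13 ± 0.34 and vac7 at 6.27 ± 0.07. The listed name fub2 was matched through a synonym to uba2, a gene of SUMO activation, which is counted among the 7. So are ape2, whose synonym tma108 is the name of a ribosome-associated protein, and vac7, named for a regulator of the Fab1 lipid kinase. The list thus holds genes that are not vacuolar cargo or hydrolases. The spread of aut12 was larger than that of any of the 43 members.

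Sorting nexin and endosomal lipid genes had the lowest median of the lists, 7.12 over 9, with 0 in the top 25% and 5 in the bottom 25%. Highest were the ubiquitin ligase gene pub1 at 8.94 ± 0.03 and the lipid kinase gene fab1 at 8.18 ± 0.03. Lowest were the sorting nexin genes atg20 at 4.20 ± 0.14 and snx3 at 5.41 ± 0.13. Both lay in the bottom 25%, as did snx41 at 7.12 ± 0.04 and the retromer nexin gene vps5. Between the bottom and the top 25% were mvp1 at 7.62 ± 0.10 and the other retromer nexin gene, vps17, at 8.35 ± 0.14.

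**Figure D4:**
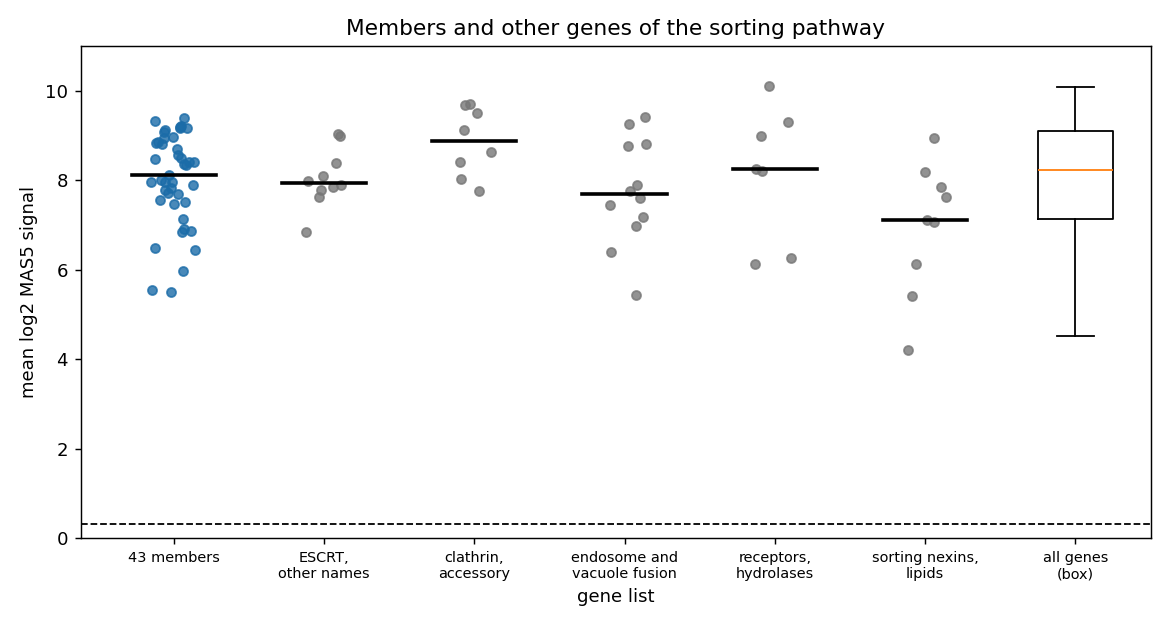
The plot gives the mean log2 MAS5 signal of each gene as a point for the 43 members, left, and for 5 lists of other pathway genes, with the box of all genes at the right (whiskers at the 5th and 95th percentiles) and the highest background limit dashed. Bars are medians, which run from 7.12 for sorting nexin and lipid genes to 8.87 for the clathrin list, with the members at 8.11. The clathrin list counts sla1, which is not an endocytic gene.

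The strain and mating-type labels were checked against their genes. The genes of the marker alleles gave 9.86 ± 0.09 for leu1, 9.14 ± 0.01 for ade6 and 9.61 ± 0.02 for ura4, and all 3 were in the top 25%. The allele ura4-DS/E is a partial deletion, and where the ura4 probes lie relative to the deleted part was not known here, so the ura4 signal neither bears out the label nor goes against it. All 4 markers of plus cells and all 7 of minus cells were above the limit, as were 99.9% of genes. The plus markers ran from 3.86 to 8.68 with a median of 5.95, and the minus markers from 2.14 to 8.42 with a median of 7.33. The ranges overlapped, but signals of different probe sets are not on 1 scale of transcript level. The marker signals thus neither bear out the h+ label nor go against it. The median was lower for the plus markers, but the highest marker was map3 of plus cells, at 8.68. The lowest were mfm2 at 2.14 and mfm1 at 3.25, both of minus cells. The label was kept.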

How the data were processed

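Total RNA of 3 wild type samples was measured on 1 array each. Each deposited value is a signal intensity of 1 probe set on a linear scale, which the authors computed with MAS5 version 5.0, per the series' design text and the submitters' processing notes. Scaling target, scanner and genome build are not given in the sources used here. After trimming 2% at each end the mean was 150.0 on every array, so intensities were turned into log2 with no further normalization and a pseudocount of 0. The number of arrays limits the precision.

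Of 10928 probe sets, 2914 belonged to 2896 genes of the gene table of assembly ASM294v3, matched by gene identifier. Where a gene had several, their log2 values were averaged. Another 2601, with capitalised symbols and identifiers outside the table, were taken as another yeast's. Their 95th percentile of log2 signal per array was the background limit. The distance of each gene from it was fitted with an intercept in limma 3.58.1 (lmFit and eBayes, two-sided test against 0) in R 4.3.3, adjusted by Benjamini-Hochberg over all genes. The fit was tested on simulated data.

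Members and lists were chosen with earlier results of these data known. The genes aps1 and vps71 were set apart by what is known of their proteins and by synonyms, since the gene table gave no product names. All members are named. Signals on every array are given for the highest and lowest of each group and for the 5 largest SDs, among others added for context. Of each pathway list the 2 highest and 2 lowest are named, with some others added for their role. No sequences were used. Alternatives are given in the closing section.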

Additional observations from a re-analysis of the deposited data

How the results depend on the processing

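All 43 members stayed above the limit with a pseudocount of 16, median centring, quantile normalization, limits at the 90th or 99th percentile, the highest probe set of a gene, a variance trend in limma, and without each array. Over these 430 values the smallest distance from the limit was 1.84 on the log2 scale and the largest limma adjusted p was 8.40e-08. A pseudocount of 16 raised the median log2 signal to 8.19 for all members, 7.79 for ESCRT and 8.88 for adaptor genes, by its construction. Leaving out aps1 and vps71 gave a median of 8.34, and leaving out 1 array in turn gave 8.08 to 8.15. With limits at the 90th and 99th percentiles, 5 and 0 capitalised probe sets of the family passed on any array, by construction. No paired analysis was possible because there was 1 group. With quantile normalization the median SD of members was 0.057, against 0.059. The median deviations became -0.0016, -0.0111 and 0.0165 on arrays 1, 2 and 3, so that of array 1 changed sign. Each moved by less than the median SD between arrays of 0.059, which is larger than the deviations themselves. The SDs were largest for vps25 and vps51, so small differences between arrays were hardest to see for these members.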

Other observations

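By the gene table, 23 of the 43 members lie on chromosome I (53.5%, against 44.8% of all genes measured), 16 on chromosome II (37.2%, against 38.1%) and 4 on chromosome III (9.3%, against 17.1%). The closest members in gene order were vps45 and vps4 on chromosome I, with 2 protein-coding genes between them. Their mean log2 signals were 7.89 ± 0.04 and 9.19 ± 0.06. Next were vps1302 and vps10 on chromosome II, with 3 protein-coding genes between them, at 8.49 ± 0.03 and 8.48 ± 0.03. They were followed by vps52 and aps2 on chromosome II, with 6 between them, at 8.94 ± 0.06 and 8.96 ± 0.03. No test was made of these positions.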
